A study of Homo sapiens with 8 samples.

Results

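The genes described here encode 10 mitochondrial chaperones and proteases that are commonly used to read the mitochondrial unfolded protein response. They were taken by name (HSPD1, HSPE1, HSPA9, DNAJA3, LONP1, CLPP, YME1L1, AFG3L2, SPG7 and HTRA2), and all 10 were found among the 23393 gene symbols of the read-count table. RNA-seq was performed on 8 libraries, 2 in each of 4 groups. Parental MDA-MB-231 cells, an established human breast cancer line that makes little of the arginine-synthesizing enzyme ASS1, were kept in full medium (parental control) or depleted of arginine for 48 h (parental starved). ρ0 cells are MDA-MB-231 cells that lost their mitochondrial DNA under ethidium bromide. They were represented by a single clone, number 27, likewise in full medium (ρ0 control) or depleted of arginine (ρ0 starved). The study's methods state that the ρ0 line was kept with added sodium pyruvate, uridine and ethidium bromide, which are not named for the parental line, so that differences between the lines cannot be told apart from these additions where they were present during the experiment. The labels describe the depletion as arginine deiminase (ADI), an arginine-degrading enzyme, at 0.3 µg/mL in the culture medium, and the study's text describes arginine-starved medium. ADI is named for the starved groups only.

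Almost all mitochondrial proteins are made in the cytosol and imported unfolded, so mitochondria carry chaperones that fold them and proteases that remove those that fail. When unfolded or unassembled proteins accumulate in the organelle, cells are known to raise nuclear transcription of some of these genes, with ATF5, ATF4 and CHOP (DDIT3) among the transcription factors named for this response. Chaperones of the matrix are the Hsp60 barrel (HSPD1) with its Hsp10 lid (HSPE1) and the mitochondrial Hsp70, mortalin (HSPA9), which works with J-proteins such as DNAJA3. The proteases sit in the matrix (LONP1, CLPP), in the inner membrane (YME1L1, AFG3L2, SPG7) and in the intermembrane space (HTRA2).

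HSPD1 and HSPE1 are known to be transcribed in opposite directions from a shared promoter. The set of RefSeq promoters used here (build GRCh38.p14) held start sites for 8 of the 10 genes, in 12 windows of 300 bases. It had no entry for CLPP or YME1L1, whose promoters were therefore not searched. The HSPD1 and HSPE1 starts lay 105 bases apart on chromosome 2. The 104 bases between them (chr2:197500275-197500378, plus strand) are shown because both genes rose in parental cells and HSPE1 had a different response in ρ0 cells. The other stretches hold the heat shock element core TTCNNGAA, in capitals, at HSPD1 (chr2:197500061-197500090, minus strand) and HSPA9 (chr5:138575387-138575416, minus strand).
Between the HSPD1 and HSPE1 starts: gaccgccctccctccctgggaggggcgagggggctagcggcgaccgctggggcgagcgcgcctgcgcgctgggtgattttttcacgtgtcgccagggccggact
HSPD1 heat shock element: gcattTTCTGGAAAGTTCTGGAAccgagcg
HSPA9 heat shock element core: tggttggaggtTTCCAGAAgcgctgccgcc
The HSPD1 stretch carries a pair of cores 2 bases apart, which together span 18 bases and begin 245 bases before the downstream of its annotated starts. Such a pair was found in 9 of 35116 promoter windows (0.0256%). A core by itself, searched on both strands, was found in 7.74% of all windows and, among the 12 windows of these genes, in the downstream HSPD1 window and that of HSPA9, where it begins 4 bases before the start. TGATGNAA, a short form of the element bound by ATF4 and C/EBP proteins, was found in 0 of the 12 windows and in 3.62% of all windows. CGCATGCG, the core of the NRF1 element, was found in a window each of DNAJA3 and LONP1 and in 2.02% of all windows. These matches describe the letters in the windows and not binding.

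The libraries held between 25259503 and 31022155 counts, of which 15262 genes passed the expression filter and were tested. Levels are CPM, counts scaled to a common library size, after TMM normalization, and fold changes are on the log2 scale from edgeR's quasi-likelihood fit to all 8 libraries, with standard errors (SE). Calling a gene required an adjusted p-value below 0.05. The study's further threshold of a log2 change above 1 or below -1 is given beside the counts of calls. The biological coefficient of variation was 5.16% between the parental control libraries, 2.29% between the parental starved, 1.84% between the ρ0 starved and 25.1% between the ρ0 control libraries. Many results that rest on the ρ0 control cultures are therefore given also without each of them. A value given without such figures may also have moved. A fit that leaves out 1 of the 2 libraries of a group holds no spread within that group. Its test takes the spread from the other groups, so its p-values and calls do not measure the spread between cultures of that group. Nothing in the labels says how separate the replicate cultures were, so p-values measure the spread between these libraries, which may be partly technical. For each gene the fit uses 1 spread for all 4 groups. The ρ0 control spread thus enters the SEs and p-values of every comparison. These SEs can be too wide where the ρ0 controls are not compared and too narrow where they are. In bulk RNA, fewer cells of a type and less RNA per cell cannot be told apart. None of the 13 protein-coding genes of the mitochondrial genome was in the table (0 of 13), so these counts hold no direct check of the ρ0 label. Markers of the line were abundant, with VIM at 522 to 3640, CD44 at 517 to 1580 and AXL at 720 to 1390 CPM, although SPARC had only 1 to 73 counts. Summed luminal epithelial markers were at 316 to 456 CPM in the parental and 497 to 1410 CPM in the ρ0 libraries, with ESR1 at no more than 6 and PGR at no more than 1 count. Single luminal markers differed between the lines in both directions. EPCAM was at 0 to 0.521 CPM in the parental and 16.4 to 23.7 in the ρ0 libraries, and CDH1 at 0 to 0.0709 and 4.31 to 15.9. FOXA1 was at 7.35 to 9.82 CPM in the parental and 0.0322 to 0.135 in the ρ0 libraries. Of the leukocyte markers, CD3E was at 0 in every library, PTPRC had 0 to 13 counts and CD14 had 4 to 92. The summed fibroblast list was at 9.79 to 36.8 CPM and the mesenchymal list at 2680 to 4920 in the parental and 6420 to 8640 in the ρ0 libraries. The part of these differences in the results was not tested.

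Arginine starvation raised 6 of the 10 genes in parental cells, namely HTRA2, HSPA9, HSPE1, AFG3L2, HSPD1 and CLPP, and lowered DNAJA3 and SPG7. LONP1 and YME1L1 did not pass the test. Among all tested genes, 30.4% were higher and 35.5% lower, and the share past the fold threshold was 34.9%, against 2 of these 10 (HSPA9 and HTRA2). The median log2 change of the 10 genes was 0.53, beside -0.07 for all tested genes. In ρ0 cells, HTRA2, HSPA9, AFG3L2 and LONP1 rose and HSPE1 fell. Here 19.2% of all tested genes were higher, 22.1% lower and 12.4% past the fold threshold, which HSPA9 and HTRA2 again passed. The median of the 10 genes was 0.10, beside -0.02 for all tested genes. It was 0.07 without ρ0 control replicate 1 and 0.31 without replicate 2. The 2 responses share no library. HSPE1 and LONP1 had responses that differed between the lines by the test of the difference itself, where 21.6% of all tested genes had a higher and 18.8% a lower response in ρ0 cells, and 19.9% also passed the fold threshold, as HSPE1 did.

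**Figure D1:**
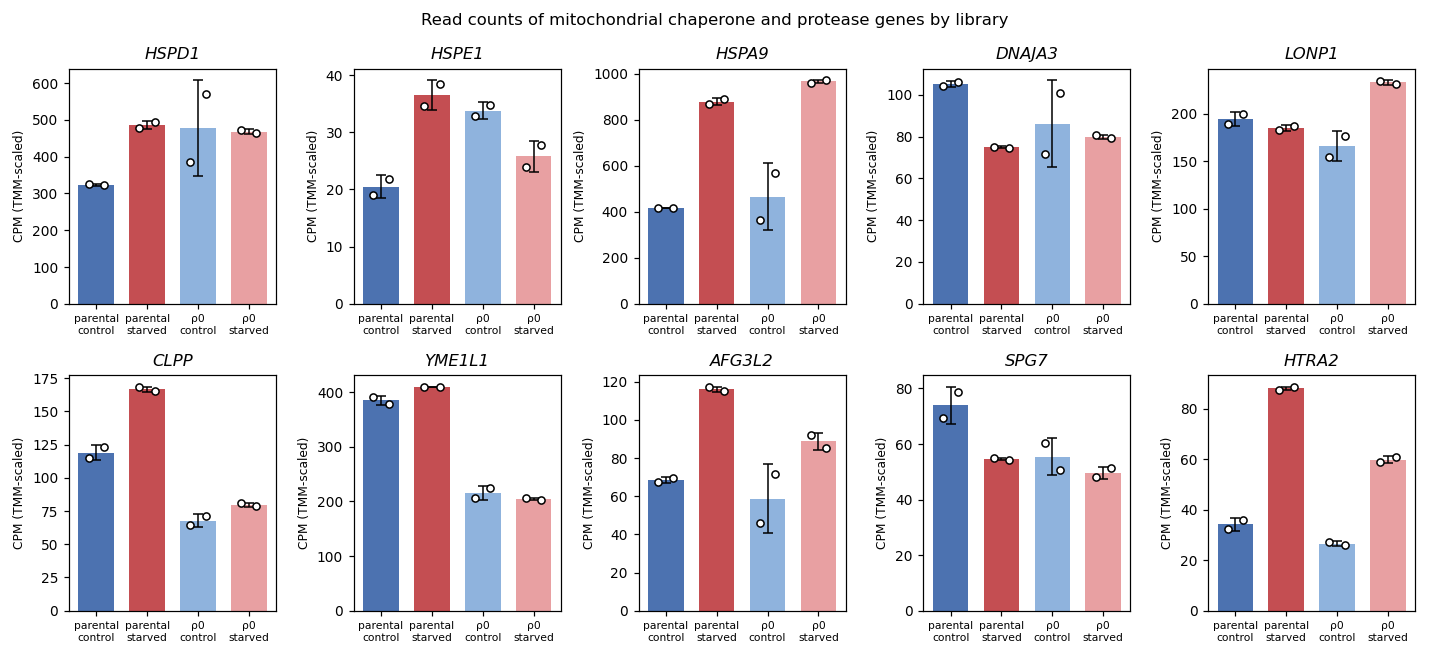
CPM after TMM scaling (vertical axes, each from 0) of the 10 genes in the 4 groups. Points are the 2 libraries, bars their mean and error bars the SD. The ρ0 control libraries lie far apart for HSPD1 (386 and 571), HSPA9 (364 and 569), DNAJA3 (71.4 and 101) and AFG3L2 (46.0 and 71.6), and HTRA2 is higher in every starved library than in every control library.

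**Figure D2:**
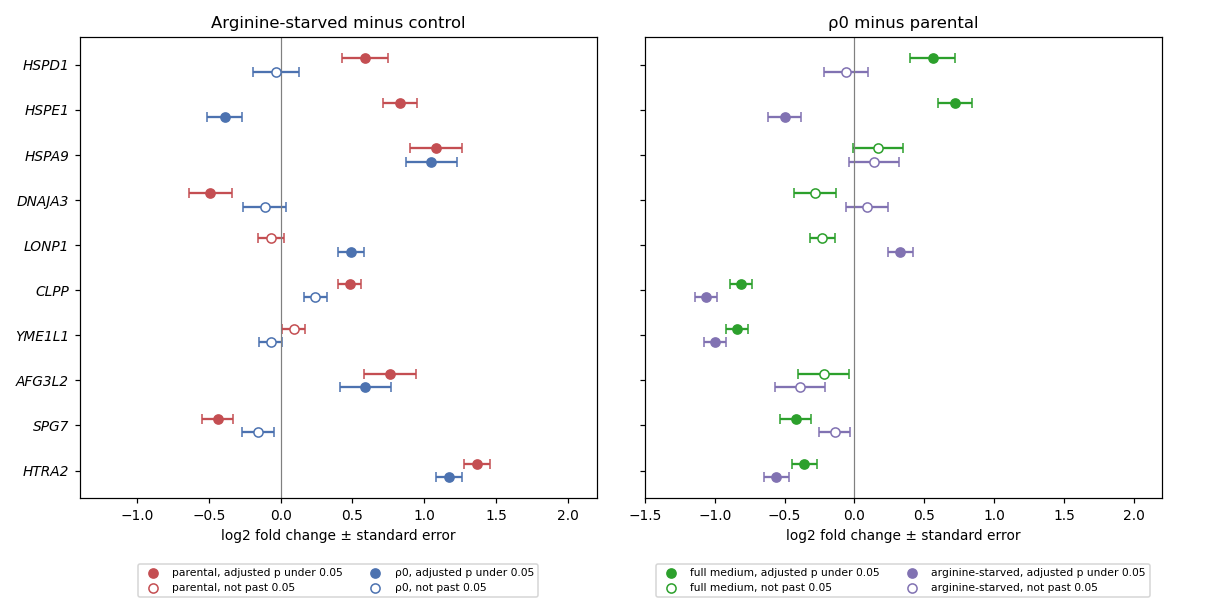
Log2 fold change with its standard error (horizontal axes) of the 10 genes. The left panel gives starved minus control in parental (red) and ρ0 cells (blue), and the right panel ρ0 minus parental cells in full medium (green) and when starved (purple). Filled points passed an adjusted p-value of 0.05. HSPE1 lies at 0.83 in parental and -0.39 in ρ0 cells, whereas HSPA9 lies at 1.08 and 1.05.

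HSPD1, which folds imported proteins inside its barrel, was at 326 and 322 CPM in the parental control and 479 and 494 CPM in the parental starved libraries. In ρ0 cells it was at 386 and 571 CPM in full medium and 473 and 464 CPM when starved. Parental control libraries were the lowest of the 8, and the ρ0 starved libraries lay between the 2 ρ0 controls. Starvation raised HSPD1 in parental cells by 0.59 (SE 0.16, adjusted p = 0.014, edgeR). This call held in the fit to the 2 parental groups alone and was lost with total counts scaling (0.43, adjusted p = 0.057, edgeR). It was also lost without any of the 4 parental libraries, with changes from 0.57 to 0.61. The change in ρ0 cells was -0.03 (SE 0.16, adjusted p = 0.90, edgeR). It was -0.29 without ρ0 control replicate 1 and 0.29 without replicate 2, so its sign depended on the control library kept.

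HSPE1, the lid of that barrel, showed the most different responses of the 10 genes. It was at 19.1 and 21.9 CPM in the parental control, 34.6 and 38.4 in the parental starved, 32.8 and 34.8 in the ρ0 control and 23.9 and 27.7 in the ρ0 starved libraries. Starvation thus separated both pairs of groups without overlap, upward in parental and downward in ρ0 cells. The rise in parental cells was 0.83 (SE 0.12, adjusted p = 0.00067, edgeR) and held under all 18 alternatives. The fall in ρ0 cells was 0.39 in size (log2 change -0.39, SE 0.12, adjusted p = 0.036, edgeR), and it was no longer called without any parental library (adjusted p from 0.0515 to 0.0662) or without ρ0 starved replicate 1 (-0.27, adjusted p = 0.251) or 2 (-0.48, adjusted p = 0.0738). The difference of the responses was -1.22 (SE 0.17, adjusted p = 0.002, edgeR) and stayed between -1.35 and -1.12 with any library left out. For HSPD1 the same difference was -0.62 (SE 0.23, adjusted p = 0.067, edgeR), or -0.87 without ρ0 control replicate 1 and -0.33 without replicate 2.

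Counts of the barrel and its lid can be set against each other within a library, which no scaling between libraries affects. Per kilobase of the longest annotated coding transcript, HSPD1 exceeded HSPE1 by 6.60 and 5.69 times in the parental control and by 5.36 and 4.99 times in the parental starved libraries. The ratio was 4.55 and 6.36 in the ρ0 control and 7.67 and 6.48 in the ρ0 starved libraries. Starved ρ0 cells were above starved parental cells, and the ρ0 control libraries lay on either side of parental control replicate 2. The GENCODE annotation names 17 pseudogenes of HSPD1 and 26 of HSPE1, of which 0 were in the table, and the exons of the 2 genes share 281 bases on opposite strands. Since neither the strand setting nor the handling of reads with several matches is given, their levels are uncertain to that extent.

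HSPA9, which pulls proteins through the inner membrane and folds them, rose by similar amounts in both lines. It was at 415 and 415 CPM in the parental control and 868 and 891 in the parental starved libraries. It was at 364 and 569 CPM in the ρ0 control and 962 and 972 in the ρ0 starved libraries, so all 4 starved libraries lay above all 4 controls. HSPA9 rose 2.12-fold in parental cells (log2 change 1.08, SE 0.18, adjusted p = 0.0013, edgeR) and 2.07-fold in ρ0 cells (1.05, SE 0.18, adjusted p = 0.0036, edgeR), and both calls held under all 18 alternatives. The ρ0 change was 0.77 without ρ0 control replicate 1 and 1.42 without replicate 2. The difference of the responses was -0.03 (SE 0.26, adjusted p = 0.95, edgeR). It was -0.31 without ρ0 control replicate 1 and 0.30 without replicate 2, and between 0.00 and 0.06 with upper quartile scaling, total counts or limma-voom, so its sign was not settled.

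DNAJA3, a J-protein that hands substrates to HSPA9, went the other way in parental cells. It was at 104 and 106 CPM in the parental control and 75.2 and 74.6 in the parental starved libraries, with 71.4 and 101 in the ρ0 control and 80.6 and 79.2 in the ρ0 starved libraries. The parental groups did not overlap, and the ρ0 starved libraries lay between the ρ0 controls. The change in parental cells was -0.49 (SE 0.15, adjusted p = 0.021, edgeR). This call held in the fit to the 2 parental groups alone. It was lost when any parental or ρ0 starved library was left out, with changes from -0.50 to -0.45. In ρ0 cells the change was -0.11 (SE 0.15, adjusted p = 0.58, edgeR), or -0.34 and 0.18 without ρ0 control replicate 1 and 2. Between the lines, the responses differed by 0.37 (SE 0.21, adjusted p = 0.19, edgeR), and by 0.15 to 0.62 with any library left out.

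Within a library, the ratio of HSPA9 to DNAJA3 per kilobase was 2.33 and 2.29 in the parental control and 6.75 and 6.98 in the parental starved libraries. It was 2.98 and 3.28 in the ρ0 control and 6.98 and 7.17 in the ρ0 starved libraries. The starved libraries of both lines thus lay within a narrow range, far above the controls. HSPA9 relative to HSPD1 was at 0.662 and 0.669 in the parental control, 0.942 and 0.936 in the parental starved, 0.490 and 0.517 in the ρ0 control and 1.06 and 1.09 in the ρ0 starved libraries. The ρ0 control libraries, whose HSPD1 and HSPA9 levels differed 1.48-fold and 1.56-fold between replicates, lay close together by this ratio. These ratios were chosen after the values were seen and are given without a test.

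**Figure D3:**
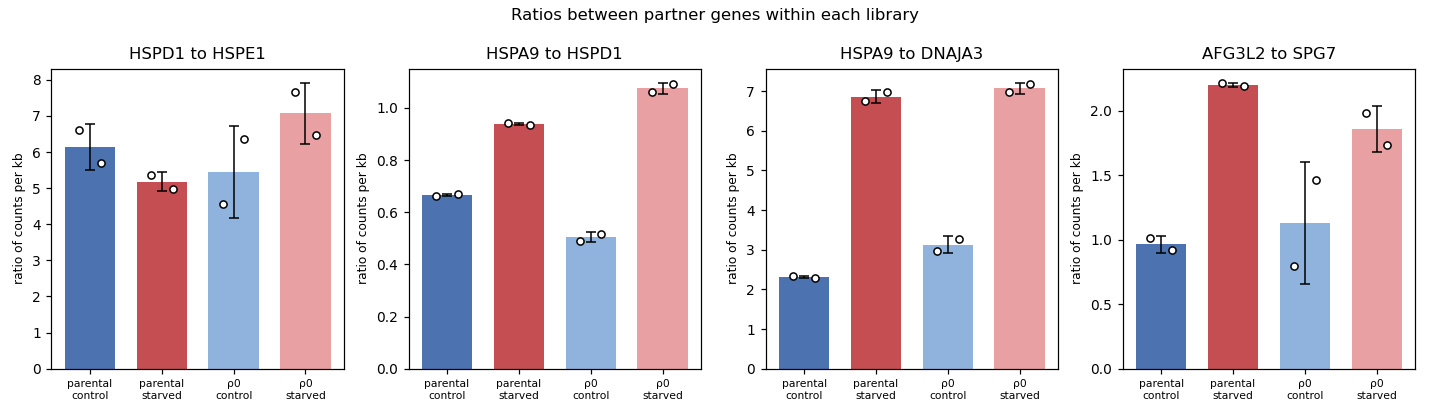
Ratio of counts per kilobase (vertical axes, each from 0) between partner genes within each library, for HSPD1 to HSPE1, HSPA9 to HSPD1, HSPA9 to DNAJA3 and AFG3L2 to SPG7. Points are libraries, bars group means of 2 and error bars the SD. HSPA9 to DNAJA3 lies between 2.29 and 3.28 in the controls and between 6.75 and 7.17 in the starved libraries.

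LONP1, the ATP-dependent protease that degrades damaged matrix proteins, responded in ρ0 cells. It was at 189 and 200 CPM in the parental control and 183 and 187 in the parental starved libraries. It was at 155 and 177 CPM in the ρ0 control and 235 and 231 in the ρ0 starved libraries, which were the highest of the 8. The change was -0.07 in parental cells (SE 0.09, adjusted p = 0.48, edgeR) and 0.49 in ρ0 cells (SE 0.09, adjusted p = 0.0039, edgeR), or 0.40 and 0.60 without ρ0 control replicate 1 and 2. The difference of the responses was 0.56 (SE 0.12, adjusted p = 0.01, edgeR). It was 0.47 without ρ0 control replicate 1 and 0.64 without replicate 2, and the call was lost without parental starved replicate 1 (0.55, adjusted p = 0.0553), parental starved replicate 2 (0.58, adjusted p = 0.0509) or ρ0 starved replicate 1 (0.53, adjusted p = 0.0579).

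CLPP, the proteolytic chamber of the matrix ClpXP protease, was lower in ρ0 than in parental cells at both conditions. It was at 115 and 123 CPM in the parental control and 168 and 165 in the parental starved libraries, against 64.3 and 71.3 in the ρ0 control and 80.9 and 78.8 in the ρ0 starved libraries. No ρ0 library reached any parental library. The rise with starvation in parental cells was 0.48 (SE 0.08, adjusted p = 0.0014, edgeR) and held under all 18 alternatives. The change in ρ0 cells was 0.24 (SE 0.08, adjusted p = 0.055, edgeR). It was 0.17 without ρ0 control replicate 1 and 0.33 without replicate 2, and DESeq2 called it (0.25, adjusted p = 0.0402). The difference of the responses was -0.25 (SE 0.12, adjusted p = 0.13, edgeR), or -0.31 and -0.20 without ρ0 control replicate 1 and 2. CLPX, the unfoldase that feeds this chamber, rose by 0.58 in parental cells (SE 0.08, adjusted p = 0.00038, edgeR) and by 0.48 in ρ0 cells (SE 0.08, adjusted p = 0.0026, edgeR). Like CLPP, it was lower in ρ0 cells at both conditions. The CLPX difference was -0.84 in full medium (SE 0.08, adjusted p = 7.5e-05, edgeR). When starved it was -0.94 (SE 0.08, adjusted p = 3.6e-05, edgeR).

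YME1L1, which degrades proteins on the intermembrane-space side of the inner membrane, was not called with starvation in either line and was lower in every ρ0 library than in every parental library. It was at 391 and 379 CPM in the parental control, 409 and 410 in the parental starved, 206 and 225 in the ρ0 control and 206 and 203 in the ρ0 starved libraries. The change with starvation was 0.09 in parental cells (SE 0.08, adjusted p = 0.34, edgeR) and -0.07 in ρ0 cells (SE 0.08, adjusted p = 0.49, edgeR). The parental value turned to -0.03 with upper quartile scaling and to -0.07 with total counts, and it was called at 0.12 in the fit to the 4 parental libraries alone (adjusted p = 0.0162). It was 0.08 without ρ0 control replicate 1 and 0.13 without replicate 2. The ρ0 value was -0.13 without ρ0 control replicate 1 and 0.01 without replicate 2. Its responses differed by -0.16 (SE 0.11, adjusted p = 0.27, edgeR), and by -0.21 to -0.12 with any library left out. YME1L1 shares 443 exon bases with MASTL on the opposite strand, which had changes of -0.17 and -0.52 in the same comparisons.

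AFG3L2 and SPG7 (paraplegin) build the protease on the matrix side of the inner membrane, as rings of AFG3L2 alone or of both. AFG3L2 was at 67.5 and 69.7 CPM in the parental control and 117 and 115 in the parental starved libraries, and at 46.0 and 71.6 in the ρ0 control and 92.0 and 85.4 in the ρ0 starved libraries. All starved libraries were above all controls. The rise in parental cells was 0.76 (SE 0.18, adjusted p = 0.0071, edgeR) and was called also in the fit to the 2 parental groups alone. It was not called without parental control replicate 1 (0.74). The rise in ρ0 cells was 0.59 (SE 0.18, adjusted p = 0.034, edgeR), 0.31 without ρ0 control replicate 1 and 0.96 without replicate 2. It was not called in the fit to the 2 groups compared (0.61, adjusted p = 0.126). Nor was it called when any of the parental or ρ0 starved libraries was left out, with changes of 0.56 to 0.67. ρ0 minus parental, the AFG3L2 responses differed by -0.16 (SE 0.25, adjusted p = 0.64, edgeR), or -0.44 without ρ0 control replicate 1 and 0.16 without replicate 2.

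SPG7 was at 69.3 and 78.7 CPM in the parental control and 54.8 and 54.4 in the parental starved libraries, and at 60.2 and 50.7 in the ρ0 control and 48.1 and 51.2 in the ρ0 starved libraries. The parental groups did not overlap and the ρ0 groups did. The change in parental cells was -0.44 (SE 0.11, adjusted p = 0.0088, edgeR), and was called also in the fit to the 2 parental groups alone. The change was not called without parental control replicate 2 (-0.35), parental starved replicate 1 (-0.45) or replicate 2 (-0.43). In ρ0 cells it was -0.16 (SE 0.11, adjusted p = 0.28, edgeR), and -0.27 to -0.03 with any library left out. Between the lines, the SPG7 responses differed by 0.28 (SE 0.16, adjusted p = 0.19, edgeR), and by 0.13 to 0.41 with any library left out. Per kilobase, the counts of AFG3L2 relative to SPG7 were 1.01 and 0.916 in the parental control and 2.21 and 2.19 in the parental starved libraries. The ratio was 0.792 and 1.46 in the ρ0 control and 1.98 and 1.73 in the ρ0 starved libraries. The pair was thus near parity in parental control cells and the ratio was higher in every starved library than in every control library. AFG3L2 shares 837 exon bases with TUBB6 on the opposite strand, which had changes of -0.69 in parental and -0.61 in ρ0 cells, opposite in sign to those of AFG3L2.

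HTRA2, a serine protease of the intermembrane space that is also released into the cytosol in apoptosis, had the largest rise of the 10 genes in parental cells and, with both ρ0 control libraries, in ρ0 cells, where HSPA9 rose more (1.42 against 1.15) without ρ0 control replicate 2. It was at 32.4 and 36 CPM in the parental control and 87.6 and 88.6 in the parental starved libraries. It was at 27.3 and 25.9 CPM in the ρ0 control and 58.9 and 60.8 in the ρ0 starved libraries, and its ρ0 control libraries lay close together. It rose 2.58-fold in parental cells (log2 change 1.37, SE 0.09, adjusted p = 1.7e-05, edgeR) and 2.25-fold in ρ0 cells (1.17, SE 0.09, adjusted p = 0.00017, edgeR). Both calls held under all 18 alternatives. The difference of the responses was -0.20 (SE 0.12, adjusted p = 0.24, edgeR), and -0.26 to -0.12 with any library left out. HTRA2 shares 483 exon bases with AUP1 and 625 with LOXL3 on the opposite strand. AUP1 had changes of 0.72 in parental and 0.13 in ρ0 cells, and LOXL3, at 47 to 214 counts a library, of 0.04 and 0.63. Without strand, reads of such overlaps cannot be told apart, and the part of this in the HTRA2 values was not tested.

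**Figure D4:**
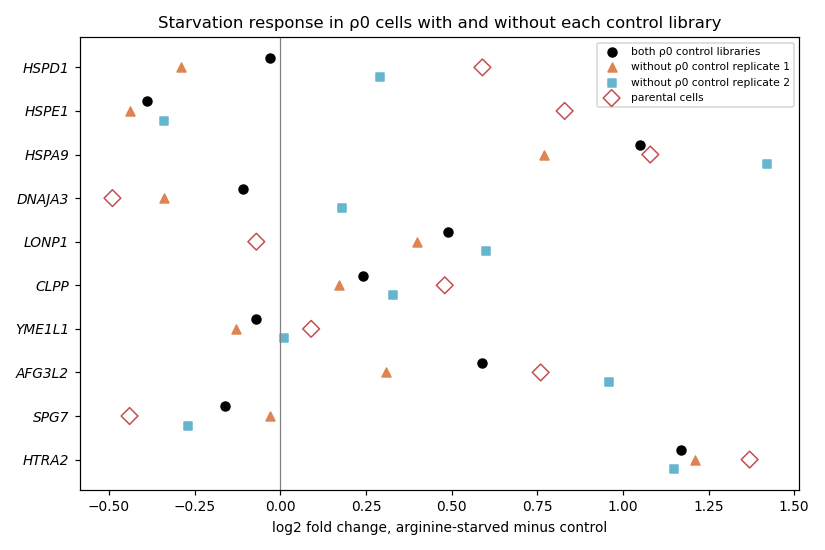
Log2 fold change with starvation (horizontal axis) of the 10 genes in ρ0 cells, with both control libraries (black), without control replicate 1 (orange) and without control replicate 2 (light blue), beside parental cells (open diamonds). HSPD1 moves from -0.29 to 0.29 and AFG3L2 from 0.31 to 0.96 between the leave-outs, whereas HTRA2 stays between 1.15 and 1.21.

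The next comparison asks how the clone without mitochondrial DNA differed from the parental line before starvation. In full medium, HSPD1 and HSPE1 were higher in ρ0 cells, and YME1L1, CLPP, SPG7 and HTRA2 were lower. Of all tested genes, 30.5% were higher and 31.8% lower, with 30.9% past the fold threshold, which 0 of these 10 genes passed. The median of the 10 genes was -0.25, beside -0.01 for all tested genes. HSPE1 was higher by 0.72 (SE 0.12, adjusted p = 0.0015, edgeR), and HSPD1 by 0.56 (SE 0.16, adjusted p = 0.018, edgeR). The HSPD1 value was 0.82 without ρ0 control replicate 1 and 0.31 without replicate 2, and it was not called without parental control replicate 1 (0.57, adjusted p = 0.0861) or 2 (0.55, adjusted p = 0.0928). YME1L1 differed by -0.84 (SE 0.08, adjusted p = 6.8e-05, edgeR) and CLPP by -0.81 (SE 0.08, adjusted p = 0.00012, edgeR), and both calls held under all 18 alternatives. SPG7 differed by -0.42 (adjusted p = 0.012, edgeR) and HTRA2 by -0.36 (adjusted p = 0.0079, edgeR), but neither was called without parental control replicate 2 (-0.33 and -0.29). Both calls were also lost with group weights in limma-voom (adjusted p = 0.0646 and 0.148) and in the fit to the 2 groups compared (adjusted p = 0.0731 and 0.0959).

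HSPA9, DNAJA3, LONP1 and AFG3L2 did not pass the test in full medium, with values of 0.17, -0.28, -0.23 and -0.22. Without ρ0 control replicate 1 the HSPA9 value was 0.45 and without replicate 2 it was -0.13. AFG3L2 was at 0.06 and -0.52, DNAJA3 at -0.05 and -0.50, and LONP1 at -0.13 and -0.27, in the same order. LONP1 was called with upper quartile scaling, total counts, a minimum of 10 counts in every library or limma-voom, with adjusted p-values of 0.016 to 0.0472. The sign for HSPA9 and AFG3L2, and the size for DNAJA3, thus depended on the control library kept. LONP1 was lower in ρ0 cells with either.

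When both lines were starved, where the replicates lay closest, LONP1 was higher in ρ0 cells and CLPP, YME1L1, HTRA2 and HSPE1 were lower. Of all tested genes, 32.9% were higher, 33.5% lower and 35.5% past the fold threshold, which 1 of the 10 genes, CLPP, passed. The median of the 10 genes was -0.26, beside -0.01 for all tested genes. CLPP differed by -1.06 (SE 0.08, adjusted p = 2.9e-05, edgeR) and YME1L1 by -1.0 (SE 0.08, adjusted p = 2.6e-05, edgeR), or 0.480 and 0.501 times the parental levels. HTRA2 differed by -0.56 (SE 0.09, adjusted p = 0.00078, edgeR), and HSPE1 by -0.50 (SE 0.12, adjusted p = 0.0076, edgeR). The HSPE1 call was lost without parental starved replicate 2 (-0.43, adjusted p = 0.0637) or ρ0 starved replicate 1 (-0.37, adjusted p = 0.0847). LONP1 was higher by 0.33 (SE 0.09, adjusted p = 0.011, edgeR), a call lost without parental starved replicate 1 (0.32), parental starved replicate 2 (0.35) or ρ0 starved replicate 1 (0.35), with adjusted p-values of 0.0527 to 0.0736. AFG3L2 (-0.39, adjusted p = 0.091) and HSPA9 (0.14, adjusted p = 0.53) were not called. Both were called with group weights in limma-voom (adjusted p = 1.53e-06 and 0.00424) and in the fit to the 2 groups compared (adjusted p = 2.02e-08 and 2.72e-06). Without ρ0 control replicate 1 and 2, AFG3L2 was at -0.38 and -0.36, and HSPA9 at 0.14 and 0.17. DNAJA3 (0.09) was called at 0.13 in the fit to the 2 groups compared (adjusted p = 0.00387), and was 0.12 without ρ0 control replicate 2. SPG7 (-0.14, adjusted p = 0.30) was called with group weights in limma-voom (adjusted p = 0.0271) and in the fit to the 2 groups compared (-0.11, adjusted p = 0.0314). The ρ0 control libraries enter this comparison only through the shared estimate of the spread and the scaling. The comparison sets no control library against another, but shares its libraries with both starvation responses.

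Per kilobase of the longest coding transcript, HSPD1 had the highest level of the 10 genes in every group but ρ0 starved, with means of 132, 198 and 195 CPM per kilobase in parental control, parental starved and ρ0 control cells. In ρ0 starved cells HSPA9 was at 205 and HSPD1 at 191. HTRA2 was the lowest in the control groups, at 14.4 and 11.2 CPM per kilobase. It rose to 37.2 and 25.3 with starvation, above SPG7 at 16.3 and 14.8. SPG7 was the lowest in both starved groups.

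The genes most like each of the 10 over the 8 libraries were not other members. Likeness was measured as the root mean square difference of log2 CPM, centered for each gene, among 9950 genes with a mean of at least 10 CPM. The nearest gene to HSPD1 was LARP1 at 0.054, and HSPE1 ranked 657th for HSPD1, at 0.229, whereas HSPD1 ranked 221st for HSPE1. For HSPA9 the nearest was GNL3 at 0.104, and AFG3L2, the nearest of the other members, ranked 405th at 0.305. CLPP and YME1L1 lay closest to each other among these genes, at 0.181, with YME1L1 ranked 212th for CLPP. DNAJA3 and SPG7 lay at 0.215, ranked 377th and 520th. The genes closest to YME1L1, CLPP and HTRA2 were KANK1 (0.039), DLST (0.047) and TOB2 (0.091). These likenesses are descriptions over libraries that share groups and carry no test.

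Of 15 transcription factor and signaling genes of the mitochondrial unfolded protein response, 8 rose and 4 fell in parental cells, where 30.4% of all tested genes were higher and 35.5% lower. In ρ0 cells 6 rose and 2 fell, against 19.2% and 22.1% of all tested genes. The ρ0 median of this list was 0.14, or 0.17 and 0.24 without ρ0 control replicate 1 and 2. ATF4 rose by 1.75 in parental cells (SE 0.15, adjusted p = 4.7e-05, edgeR) and by 0.89 in ρ0 cells (SE 0.14, adjusted p = 0.0025, edgeR), or by 0.68 and 1.17 without ρ0 control replicate 1 and 2. DDIT3 had the largest rise of the list in ρ0 cells, 1.86 (SE 0.19, adjusted p = 0.00045, edgeR), or 1.58 and 2.22 without these libraries, beside 1.27 in parental cells (SE 0.19, adjusted p = 0.00082, edgeR). The response of ATF5 differed most between the lines. ATF5 was at 8.15 and 8.37 CPM in the parental control and 34.8 and 35.8 in the parental starved libraries. In ρ0 cells it was at 22.5 and 35.3 CPM in full medium and 31.7 and 29.7 when starved. ATF5 thus rose by 2.09 in parental cells (SE 0.20, adjusted p = 8.8e-05, edgeR), and ρ0 control cells were already above parental control cells by 1.81 (SE 0.20, adjusted p = 0.00018, edgeR). Its change in ρ0 cells was 0.09 (SE 0.19, adjusted p = 0.75, edgeR), or -0.20 and 0.46 without ρ0 control replicate 1 and 2, and the difference of the responses was -2.01 (SE 0.28, adjusted p = 0.0018, edgeR), or -2.29 and -1.67.

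CEBPB, a partner of CHOP, had the opposite pattern, at 109 and 138 CPM in the parental control, 151 and 113 in the parental starved, 57.0 and 55.8 in the ρ0 control and 140 and 127 in the ρ0 starved libraries. It rose in ρ0 cells by 1.25 (SE 0.16, adjusted p = 0.0011, edgeR), or by 1.26 and 1.24 without ρ0 control replicate 1 and 2, and the responses differed by 1.15 (SE 0.22, adjusted p = 0.0069, edgeR). FOXO3, a stress-responsive transcription factor, rose by 1.47 in parental cells (SE 0.09, adjusted p = 1.5e-05, edgeR) and by 0.81 in ρ0 cells (SE 0.09, adjusted p = 0.0006, edgeR), or by 0.87 and 0.76 without the same libraries. HSF1, which binds heat shock elements, was lower in ρ0 cells in full medium by 1.15 in size (log2 difference -1.15, SE 0.10, adjusted p = 5.9e-05, edgeR), and -1.03 and -1.22 without ρ0 control replicate 1 and 2. EIF2AK1, the kinase that relays mitochondrial stress to translation, had changes of -0.72 in parental and -0.51 in ρ0 cells, both called (adjusted p = 0.0041 and 0.032, edgeR), and the latter was -0.23 and -0.73 without ρ0 control replicate 1 and 2.

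Other mitochondrial chaperones and cochaperones (11 genes) had 5 rises and 3 falls in parental cells and 3 rises and 2 falls in ρ0 cells, with medians of 0.34 and 0.05. The ρ0 direction depended on the control library kept, with a median of -0.21 without replicate 1 and 0.38 without replicate 2. Among all tested genes, 30.4% rose and 35.5% fell in parental cells, and 19.2% and 22.1% in ρ0 cells. GRPEL1, which exchanges the nucleotide of HSPA9, was at 120 and 126 CPM in the parental control, 246 and 260 in the parental starved, 62.8 and 86.5 in the ρ0 control and 90.7 and 91.8 in the ρ0 starved libraries. All ρ0 libraries lay below all parental ones. GRPEL1 rose by 1.04 in parental cells (SE 0.14, adjusted p = 0.00043, edgeR) and had a change of 0.29 in ρ0 cells (SE 0.14, adjusted p = 0.14, edgeR), a difference of -0.75 (SE 0.20, adjusted p = 0.021, edgeR), or -0.96 and -0.53 without ρ0 control replicate 1 and 2. HSCB, a J-protein of iron-sulfur cluster assembly, rose in both lines, by 1.49 and 0.60, the latter 0.51 and 0.70 without these libraries. CLPB, a disaggregase of the intermembrane space, fell in both, with changes of -1.23 and -0.59. TRAP1, the mitochondrial Hsp90, had changes with starvation of 0.09 and 0.08 that were not called, and differed between the lines by -1.12 in full medium (SE 0.23, adjusted p = 0.0039, edgeR), or by -0.75 and -1.54 without ρ0 control replicate 1 and 2.

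Among 14 other mitochondrial proteases and processing peptidases, 3 rose and 4 fell in parental cells, and 6 rose and 3 fell in ρ0 cells, with a median of 0.07 in each. In ρ0 cells these were 6 and 6 (median -0.07) without control replicate 1 and 9 and 3 (median 0.32) without replicate 2. The shares of all tested genes were 30.4% higher and 35.5% lower in parental cells, and 19.2% and 22.1% in ρ0 cells. OMA1, a stress-activated inner membrane protease that works alongside YME1L1, was at 21.6 and 23.7 CPM in the parental control and 11.3 and 11.3 in the parental starved libraries, and at 9.54 and 8.33 in the ρ0 control and 12.8 and 12.7 in the ρ0 starved libraries. The starved groups of the 2 lines were close, and the control groups far apart. OMA1 had a change of -1.0 in parental cells (SE 0.12, adjusted p = 0.00022, edgeR) and of 0.51 in ρ0 cells (SE 0.12, adjusted p = 0.012, edgeR), or of 0.61 and 0.43 without ρ0 control replicate 1 and 2. The responses differed by 1.51 (SE 0.17, adjusted p = 0.00088, edgeR), or by 1.61 and 1.39 without ρ0 control replicate 1 and 2. PITRM1, which degrades cleaved presequences, was higher in ρ0 cells by 1.20 in full medium and by 1.03 when starved. Its changes with starvation, 0.24 in parental and 0.07 in ρ0 cells, were not called, and the latter was 0.23 without ρ0 control replicate 2. Of 6 partners and scaffolds of the inner membrane proteases, STOML2, which scaffolds YME1L1, rose in parental cells by 0.59 (SE 0.16, adjusted p = 0.013, edgeR), and 0 of 6 were called in ρ0 cells. The ρ0 median of the 6 was -0.14, or -0.28 and 0.13 without ρ0 control replicate 1 and 2.

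**Figure D5:**
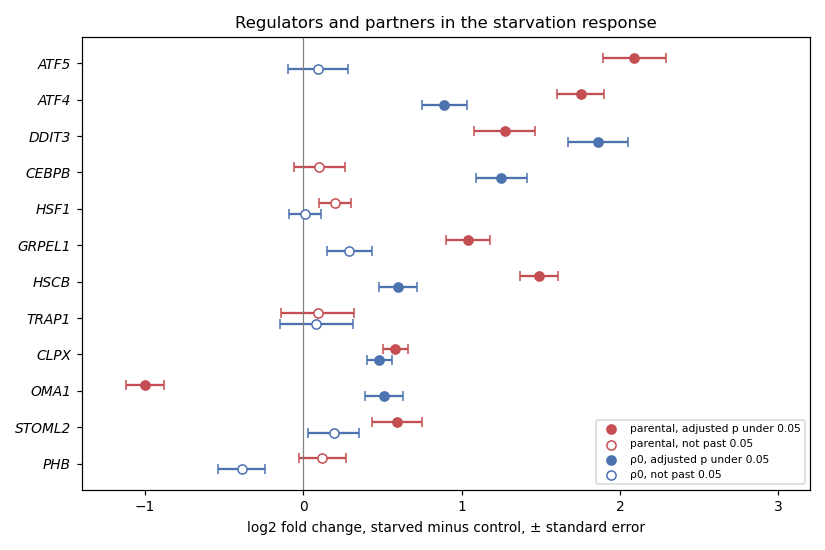
Log2 fold change with starvation and its standard error (horizontal axis) of regulators and partner genes in parental (red) and ρ0 cells (blue). Filled points passed an adjusted p-value of 0.05. ATF5 lies at 2.09 in parental and 0.09 in ρ0 cells and OMA1 at -1.0 and 0.51, whereas CLPX lies at 0.58 and 0.48.

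Chaperones of other compartments were counted for comparison. Of 18 cytosolic chaperones, 9 rose and 2 fell in parental cells, and 3 rose and 7 fell in ρ0 cells, with medians of 0.26 and -0.26. The ρ0 median was -0.42 without control replicate 1 and -0.01 without replicate 2. The shares of all tested genes were 30.4% higher and 35.5% lower in parental and 19.2% and 22.1% in ρ0 cells. The responses differed for 8 of the 18, all with the lower value in ρ0 cells (18.8% of all tested genes). The median difference of the responses was -0.57, or -0.66 and -0.43 without ρ0 control replicate 1 and 2. HSPA1A, the inducible cytosolic Hsp70, had a change of -1.17 in ρ0 cells (SE 0.16, adjusted p = 0.0013, edgeR), or -1.36 and -0.93 without ρ0 control replicate 1 and 2, and of 0.11 in parental cells (SE 0.17, adjusted p = 0.58, edgeR). It has a near-identical copy in HSPA1B, so reads could have been split between them. HSPA1B was more abundant, at 50.6 to 112 CPM against 5.49 to 26 CPM for HSPA1A. HSPA1B had a smaller change in ρ0 cells, -0.42 (SE 0.14, adjusted p = 0.043, edgeR). In parental cells it rose by 0.41 (SE 0.13, adjusted p = 0.028, edgeR). HSPB1, a small cytosolic chaperone, had 4 to 12 counts in the parental and 1135 to 2241 in the ρ0 libraries. Of 12 chaperones of the endoplasmic reticulum, 5 rose and 2 fell in parental cells, and 5 rose and 0 fell in ρ0 cells, with medians of 0.31 and 0.42. The ρ0 median was 0.72 without ρ0 control replicate 1 and 0.29 without replicate 2. The counts are read against the same shares of all tested genes in the fit to all 8 libraries. Of 10 proliferation genes, 8 fell in parental and 10 in ρ0 cells, with medians of -1.85 and -1.66, so starved and control cultures also differed in these genes, and their part in the chaperone and protease values was not tested.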

How the data were processed

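RNA from 8 cultures was sequenced. The authors deposited raw read counts, 1 row a gene symbol, and their processing notes name Bowtie, Partek and hg19, with versions, annotation and strand setting not given in the sources used here. Counts were analyzed in R 4.3.3 with edgeR 4.0.16. Genes were kept by filterByExpr on the 4 groups, libraries were scaled by TMM, and quasi-likelihood tests used 1 model of all 8 libraries, a mean for each group (4 residual degrees of freedom, prior 3.4). Benjamini-Hochberg adjustment ran over 15262 genes. SEs were derived as the absolute log2 change over the root of its F statistic. The members and gene lists were chosen with earlier results of these data known. From each other list, up to the 3 largest rises and 3 largest falls per comparison could be named. These had to be called, have a mean of at least 10 CPM and not overlap. The text names only some of these genes, and gives their values in other comparisons also where not called. Alternatives used other scalings, filters, thresholds, DESeq2 1.42.0, limma 3.58.1 (voom), a replicate block, fewer groups, or left out each library. The fit was tested on simulated counts with the same spread in all groups, so not under the unequal spread of these libraries. Promoters came from RefSeq (GRCh38.p14), whose coordinates were not mixed with the counts' build. A further leukocyte marker is not reported here.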

Additional observations from a re-analysis of the deposited data

Results flagged for a closer look

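The starvation responses of HSPE1 and LONP1 differed between the lines by the test of the difference itself. For HSPE1 the response in ρ0 cells minus that in parental cells was -1.22 (log2, adjusted p = 0.002, edgeR), with changes of 0.83 in parental and -0.39 in ρ0 cells, and both libraries of each starved group lay beyond both of its controls. For LONP1 it was 0.56 (log2, adjusted p = 0.01, edgeR), with changes of -0.07 in parental and 0.49 in ρ0 cells.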

How the results depend on the processing

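With the fold threshold, the number of these 10 genes called was 2 higher and 0 lower in parental cells, 2 and 0 in ρ0 cells, 0 and 0 between the lines in full medium, 0 and 1 when starved, and 0 higher for the difference of the responses. HSPE1's fall in ρ0 cells was lost, leaving 0 lower, without a filter, with group weights in limma-voom and in the fit to the 2 groups compared. AFG3L2's rise in ρ0 cells was also lost in the fit to the 2 groups compared (0.61, adjusted p = 0.126). In full medium that last fit called 1 higher, and both it and group weights called 2 lower, without SPG7 and HTRA2. When starved, group weights called 2 and the fit to 2 groups 3 higher. For the difference of the responses, DESeq2 and group weights called 2 lower.

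With each library left out in turn, the called genes numbered 4 to 7 higher and 0 to 2 lower in parental cells, and 3 to 7 higher and 0 to 4 lower in ρ0 cells. They numbered 1 to 3 higher and 2 to 8 lower between the lines in full medium, 0 to 3 higher and 3 to 5 lower when starved, and 0 to 3 higher and 1 to 6 lower for the difference of the responses. Over all genes, the ρ0 response had 9784 and 9720 calls without ρ0 control replicate 1 and 2, and the difference of the responses 10277 and 9269.

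Signs turned in values that were not called with all 8 libraries under TMM, some of which were called after the turn. These were YME1L1 in parental cells with upper quartile scaling (-0.03) and total counts (-0.07), HSPD1 between starved lines with upper quartile scaling (0.01), and HSPA9's difference of responses with upper quartile scaling (0.06), total counts (0.05) and limma-voom with and without group weights (0.00). Left-out libraries gave ranges across 0 for HSPD1 (-0.29 to 0.29), DNAJA3 (-0.34 to 0.18) and YME1L1 (-0.13 to 0.01) in ρ0 cells, HSPA9 (-0.13 to 0.45) and AFG3L2 (-0.52 to 0.06) between the lines in full medium, and HSPA9 (-0.31 to 0.30) and AFG3L2 (-0.44 to 0.16) for the difference of the responses. The cause was not tested. Over the single genes and comparisons, leaving out a library ended 38 calls and added 28 without a change of sign, and the other alternatives ended 11 and added 16. Total counts ended those of HSPD1 in parental (0.43, adjusted p = 0.057) and AFG3L2 in ρ0 cells (0.51, adjusted p = 0.0614).

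Total counts moved the median change of all genes in parental cells from -0.07 to -0.23 and upper quartile scaling to -0.19, and the latter moved that of the difference of the responses from 0.02 to 0.12. Same-numbered replicates did not deviate together (correlations across genes from -0.053 to 0.039). The labels do not say whether same-numbered cultures were handled together, and these correlations cannot exclude it. The replicate block left the number of these genes called at 6 and 2 in parental cells, 4 and 1 in ρ0 cells, 2 and 4 in full medium, 1 and 4 when starved and 1 and 1 for the difference.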
